A study of Mus musculus with 10 samples.

Results

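Red pulp macrophages are the resident macrophages of the splenic red pulp, and 307 cells of this kind were found among 9356 cells that passed the RNA filter in 5 mouse spleen libraries. A cell passed with at least 200 genes and at most 10% of its UMIs (unique molecular identifiers, each counting 1 captured transcript) on mitochondrial genes. A member had to hold at least 3 UMIs of C1qa, C1qb and C1qc together and at least 1 of Vcam1, Slc40a1 and Spic together. It could hold no UMI of Cd3e, Cd3d, Cd3g or Cd79a, which mark T and B cells. Measured values of these 10 genes therefore chose the members, and their levels are given below as descriptions with no test.

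The spleens came from 3 BXD2-p19-/- mice, of which mice 1 and 2 were female and mouse 3 was male, and from 2 female BXD2-WT mice. BXD2 is a recombinant inbred strain that develops autoantibodies with age, and all 5 mice share that background. The knockout lacks p19, which Il23a encodes and which forms IL-23 together with p40. The labels name B and T cells as the material, the design text speaks of germinal centre B cells, and neither gives ages or describes a sort, so macrophages were not the labelled cell type. Il23a had 0 UMIs in every class of cells in all 5 libraries, so the genotype labels could not be checked by the targeted gene.

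Red pulp macrophages take up aged red blood cells, break down their haemoglobin, and return the iron to the blood. Heme oxygenase, encoded by Hmox1, opens the heme ring, ferritin stores the freed iron, and ferroportin, encoded by Slc40a1, exports it. The transcription factor SpiC, encoded by Spic, is needed for these cells to form and is induced by heme.

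The label was checked with markers that the rule did not use. Hmox1 was found in 267 of the 307 members and Cd5l, which encodes a secreted scavenger protein of tissue macrophages, in 231. Levels are given as CPM, the UMIs of a gene summed over the members of a mouse and scaled to a total of 1000000. Hmox1 measured 3036, 2426 and 3209.9 CPM in p19-/- mice 1 to 3 and 5914 and 3155 CPM in WT mice 1 and 2. T cells held 22.4 to 27.7 CPM of Hmox1 and B cells 2.9 to 5.4 CPM. After each cell was thinned to 500 UMIs, a Hmox1 UMI was found in 58.3 to 79.1% of members and in 0.694 to 1.36% of T cells. T cells serve here and below as background for free RNA. They were cells with a Cd3e, Cd3d or Cd3g UMI and no UMI of Cd79a or the C1q genes. Droplets with free C1q RNA were thus left out of the T cells, so this background may be too low. B cells had a Cd79a UMI and none of the Cd3 or C1q genes. All 25 listed identity genes had at least 1 UMI in the members, among them Adgre1, Csf1r, Treml4, Mertk, Axl and Pparg. The rule genes themselves were uneven among members: Vcam1 was seen in 284 cells, Slc40a1 in 253, Spic in 184, and all 3 together in 162.

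Beyond the rule, the genes with the highest ratio of members to all other cells included scavenger, engulfment and complement genes. Among genes of at least 100 CPM in members the first 15 were Col14a1, Lepr, Ccr3, Cd163, Mertk, Slc45a3, C6, Slco2b1, Galnt3, Paqr9, Sema6d, Itga9, Fcna, Kcnj10 and Kcnj16. Cd163, the receptor for haemoglobin bound to haptoglobin, averaged 295 CPM over mice in members and 0.371 CPM in other cells. C6, a component of the complement membrane attack complex, averaged 849 CPM in members and 1.24 CPM in other cells. Mertk, a receptor tyrosine kinase for engulfing dying cells, averaged 575 CPM in members and 0.818 CPM elsewhere. Since the members were chosen by expression, these contrasts are descriptions.

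The levels of markers of other cells differed by cell type. The 8 listed natural killer cell markers were at 0 in every mouse, and the 8 stromal markers reached at most 10.9 CPM together. Of the B cell receptor libraries made from the same mice, 0 of 307 member barcodes had a contig, which allows a share of up to 0.977%, while 94.5% of B cells, 19.6% of T cells and 1 of 143 monocytes had one. The 12 monocyte markers, of which 11 had a UMI, summed to 4958 to 10920.4 CPM in p19-/- members and 1304 to 3337 CPM in WT members. Most of that sum was Lyz2, which encodes lysozyme and is shared by many macrophages. Chil3, a defining gene of classical monocytes, was the only one of the 12 at 0, and Ly6c2 was seen in p19-/- mouse 3 alone, at 241 CPM. By mouse, 7, 4 and 8 of the 12 had a UMI in p19-/- members and 5 and 7 in WT members. Of the 11 dendritic cell markers 8 had a UMI, and Flt3 was at 0. The 11 summed to 226 to 362 CPM in p19-/- mice and 169 to 316 CPM in WT mice. The 12 erythroid markers summed to 256 to 11017 CPM in p19-/- members and 3980 to 13290.3 CPM in WT members, mostly haemoglobin.

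Members were shallow cells. Their median UMIs per cell were 1132, 1491.5 and 2330.0 for p19-/- mice 1 to 3 and 1307 and 1802 for WT mice 1 and 2, while medians were 3906 to 5252 over all filtered cells of the libraries, and 23 members held more than 4000. The medians did not separate the genotypes (exact permutation test, both tails, over 10 splits of the mice, p = 1, where the smallest possible p is 0.2). Summed over members, the libraries held 128472, 92762 and 66357 UMIs in p19-/- mice and 183291 and 104274 in WT mice. Whole libraries held 7712457 to 18093053 UMIs. Between libraries, 68 pairs of cells shared a barcode, none of them a pair of members, and 2 member barcodes recurred in another library.

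Red pulp macrophages made up 4.66%, 4.84% and 1.06% of filtered cells in p19-/- mice 1 to 3 and 4.12% and 2.84% in WT mice 1 and 2. Member numbers were 73, 46, 25, 115 and 48 in that order. The exact Clopper-Pearson 95% interval of p19-/- mouse 3, the only male, ran from 0.688 to 1.56%, below those of the other 4 mice. The share was 3.52% ± 2.13 (SD, n = 3) in p19-/- mice and 3.48% ± 0.909 (SD, n = 2) in WT mice, a difference smaller than the spread within either group (exact permutation p = 1).

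Iron storage and export genes were abundant in every mouse. Ftl1, the ferritin light chain, measured 15863, 15815 and 19214 CPM in p19-/- mice and 16668 and 15699 CPM in WT mice. Fth1, the heavy chain that oxidises iron, measured 15699.9, 12214 and 13036 CPM against 13765 and 11911 CPM. For both chains the groups overlapped, with log2 fold changes of 0.11 ± 0.14 (SE) and 0.13 ± 0.16, which edgeR's quasi-likelihood test did not call (edgeR adjusted p = 0.826 and 0.817). T cells held 1366 to 1542 CPM of Ftl1.

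Slc40a1 measured 1456, 1445 and 1356 CPM in p19-/- members and 2848 and 2570.2 CPM in WT members, and the groups did not overlap. As a rule gene it is given without a test. Spic measured 942, 647 and 754 CPM against 1288 and 1103 CPM, and Vcam1, an adhesion molecule, 3612, 4279.8 and 3496 CPM against 5298 and 5035 CPM. All 3 red pulp genes of the rule were thus lower in each p19-/- mouse than in either WT mouse, as were 16.6% of all tested genes. These are values that chose the members, although 1 UMI of any of the 3 sufficed. The share of members with more than 10 such UMIs was 34.2%, 43.5% and 48.0% in p19-/- mice and 57.4% and 68.8% in WT mice.

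Of the 26 listed iron handling genes, 21 had a UMI, 8 outside the rule were tested and 0 were called. Across all genes the genotype test called 0.297% of 2017 genes outside the rule, all of them higher in p19-/- mice, and 10.3% had an unadjusted p under 0.05. Pcbp1, an iron chaperone that loads ferritin, measured 272, 183 and 407 CPM against 175 and 125 CPM and had the lowest adjusted p of the 8, 0.35. Slc11a1, the iron and manganese pump of the phagosome, measured 490, 356 and 347 CPM against 349 and 460 CPM, with overlapping groups. Trf, transferrin, measured 475, 539 and 271 CPM against 562 and 518 CPM. Tfrc, the transferrin receptor, was scarce, with 19 UMIs over all members, and Hamp, which encodes hepcidin, had none.

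**Figure D1:**
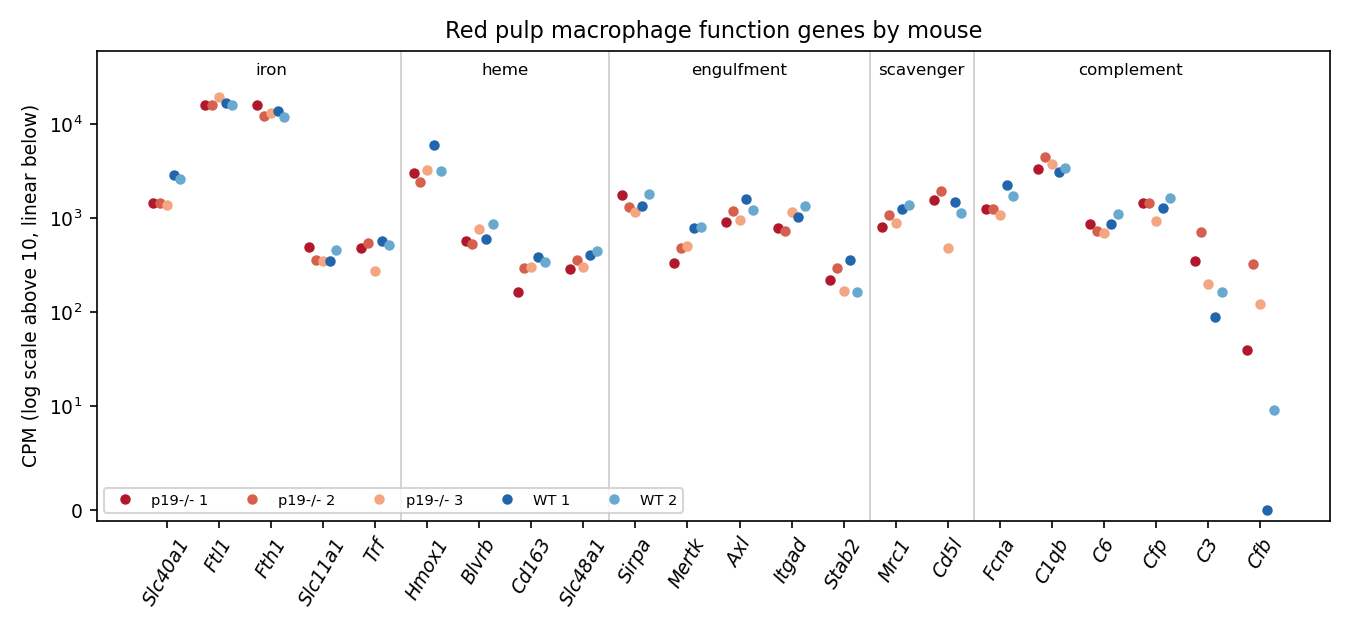
CPM of summed member UMIs (axis logarithmic above 10 CPM and linear below) for iron, heme, engulfment, scavenger and complement genes, 1 point per mouse, red shades for the 3 p19-/- mice and blue for the 2 WT mice. Ferritin chains Ftl1 and Fth1 overlap between the groups, Slc40a1 lies lower in the 3 p19-/- mice, and Cfb reaches 323 CPM in p19-/- mouse 2 against 9.59 CPM or less in WT mice.

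Heme breakdown genes were present in all mice and leaned lower in p19-/- members without passing the test. Of 8 tested genes 7 had a negative log2 fold change, with a median of -0.32 against -0.02 over all tested genes, and 0 were called. Hmox1, whose values are given above, stood highest in WT mouse 1, while WT mouse 2 lay within the p19-/- range. Its log2 fold change was -0.62 ± 0.24 (edgeR quasi-likelihood, unadjusted p = 0.0236, edgeR adjusted p = 0.357). Without WT mouse 1 the Hmox1 change was -0.05, and without WT mouse 2 it was -1.03. In cells thinned to equal depth the share with a Hmox1 UMI was 66.4% ± 8.82 (SD, n = 3) and 68.7% ± 14.7 (SD, n = 2), a difference within the spread (exact permutation p = 1). Blvrb, which reduces the biliverdin that heme oxygenase releases, measured 568, 528 and 754 CPM against 595 and 854 CPM. Slc48a1, which carries heme out of the phagosome, measured 288, 356 and 301 CPM against 398 and 441 CPM (edgeR adjusted p = 0.643). For Cd163 the values were 163, 291 and 301 CPM against 382 and 336 CPM (edgeR adjusted p = 0.56). Lrp1, a receptor for heme bound to hemopexin, measured 615, 571 and 663 CPM against 797 and 796 CPM (edgeR adjusted p = 0.605). The groups did not overlap for these last 3 genes, a pattern that 16.6% of all tested genes showed in the same direction.

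Haemoglobin transcripts, which belong to the red cell lineage, ranged widely within both genotypes. Hbb-bs measured 895, 6587 and 105 CPM in p19-/- members and 6929 and 2014 CPM in WT members. A single cell held 925 of the 952 UMIs of Hbb-bs, Hbb-bt, Hba-a1 and Hba-a2 in p19-/- mouse 2, and 326 of 391 in WT mouse 2. The top cell held 215 of 264 in p19-/- mouse 1 and 4 of 11 in p19-/- mouse 3. In WT mouse 1 these UMIs were spread over 29 cells, and the top cell held 403 of 2297. After thinning, 6.25 to 15.7% of members and 0 to 1.95% of T cells held a haemoglobin UMI, and the groups overlapped. Hba-a1 and Hba-a2 are nearly identical copies, so reads between them cannot be assigned with certainty. Their fitted genotype changes had opposite signs. With no filter on low counts edgeR called Hba-a1 at -1.71 and Hba-a2 at 1.74 on the log2 scale (adjusted p = 1.43e-09 and 1.25e-05). Hbb-bt stood at -1.66 in that fit (adjusted p = 8.23e-07).

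Of 30 listed engulfment genes 27 had a UMI, 17 were tested, and 0 were called, with a median log2 fold change of -0.07. Sirpa, the receptor that reads the CD47 signal on red cells and restrains uptake, measured 1767, 1315 and 1160.4 CPM against 1342 and 1774 CPM. Mertk measured 335, 474 and 497 CPM in p19-/- members and 775 and 796 CPM in WT members, with no overlap. Its log2 fold change of -0.82 ± 0.24 had the lowest p of the list (edgeR quasi-likelihood, unadjusted p = 0.00409), but did not pass adjustment (edgeR adjusted p = 0.218). Axl, a relative of Mertk, measured 903, 1197 and 949 CPM against 1599 and 1218 CPM (edgeR adjusted p = 0.525). Itgad, the integrin subunit CD11d typical of red pulp macrophages, measured 771, 733 and 1145 CPM against 1009 and 1333 CPM, with overlap. Fcer1g, the signalling chain of the activating Fc receptors, measured 2615, 2285 and 2924 CPM against 2586 and 2282 CPM, also with overlap. Tyro3, the third receptor of the Mertk family, had 0 UMIs, and Gas6, a ligand that bridges these receptors to dying cells, had 14.

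Among scavenger receptors, 17 of 22 listed genes had a UMI, 10 were tested and 0 were called. Mrc1, the mannose receptor, measured 802, 1067 and 874 CPM in p19-/- members and 1255 and 1362 CPM in WT members (edgeR adjusted p = 0.472). Cd5l was lowest in p19-/- mouse 3, at 482 CPM, while the other mice held 1533, 1919, 1457 and 1132 CPM. Marco, a receptor usually assigned to marginal zone macrophages, varied within both groups, at 514, 119 and 136 CPM against 360 and 76.7 CPM. Cd36 and Msr1 were nearly silent, with 3 and 6 UMIs.

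The C1q chains trigger the classical complement pathway and belong to the rule. C1qb measured 3300.3, 4485 and 3722 CPM in p19-/- members and 3072 and 3385 CPM in WT members. C6 measured 864, 722 and 693 CPM against 862 and 1103 CPM. Cfp, or properdin, which stabilises the alternative pathway's enzyme, measured 1432, 1423 and 919 CPM against 1282 and 1621 CPM. Fcna, ficolin A of the lectin pathway, measured 1238, 1239.7 and 1085 CPM against 2226 and 1697 CPM, with no overlap (log2 fold change -0.68 ± 0.21, edgeR adjusted p = 0.255). C3, the central component, measured 350, 701 and 196 CPM against 87.3 and 163 CPM, again with no overlap (log2 fold change 1.88 ± 0.48, edgeR adjusted p = 0.154). Cfb, factor B, had 43 UMIs in p19-/- members and 1 in WT members, a ratio of 43.0 with an exact 95% counting interval of 7.32 to 1737 (edgeR adjusted p = 0.113). Vsig4, a macrophage receptor for C3 fragments, had 22 UMIs against 3, a ratio of 7.33 with an interval of 2.2 to 38.3 (edgeR adjusted p = 0.326). C3 and Cfb did pass under other settings, such as a minimum count of 5 (edgeR adjusted p = 0.0414 and 0.0148) or without p19-/- mouse 1 (edgeR adjusted p = 0.00719 and 4.17e-05). Of 7 tested complement genes outside the rule 0 were called.

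Over these 6 lists together, 129 genes were listed and 54 outside the rule were tested. None passed adjustment in edgeR's quasi-likelihood test (lowest adjusted p = 0.113), and 18.5% had an unadjusted p under 0.05 against 10.3% of all genes. These were 5 genes higher and 5 lower in p19-/- members, where 5.6% and 4.71% of all genes lay on those sides. The identity list leaned lower in p19-/- members: 15 of its 20 tested genes had a negative log2 fold change, with a median of -0.29.

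Of the 6 genes that passed the genotype test, 4 belong to antigen presentation. MHC class II molecules display peptides to CD4 T cells, and the invariant chain, encoded by Cd74, escorts them from the endoplasmic reticulum. Cd74 measured 10041, 11492 and 9841 CPM in p19-/- members and 2515 and 3040.1 CPM in WT members. The alpha chain gene H2-Aa measured 2787, 2814 and 2049.5 CPM against 486 and 585 CPM. For the beta chain gene H2-Eb1 the values were 2070.5, 2426 and 1462 CPM against 316 and 336 CPM. H2-Ab1, the other beta chain, measured 1845, 1703 and 1266 CPM against 464 and 460 CPM. For each of the 4 genes every p19-/- mouse lay above both WT mice, as for 11.9% of all tested genes.

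All 4 passed. Log2 fold changes of p19-/- over WT were 1.97 ± 0.18 (SE) for Cd74 and 2.32 ± 0.24 for H2-Aa, with adjusted p of 7.06e-05 and 0.000145 in edgeR's quasi-likelihood test. H2-Eb1 rose by 2.67 ± 0.28 on the log2 scale (edgeR adjusted p = 0.000145) and H2-Ab1 by 1.85 ± 0.24 (edgeR adjusted p = 0.00177). Of the 12 listed presentation genes 8 were tested and all 8 had positive fold changes, with a median of 1.59, while 981 of 2017 genes overall were positive. H2-DMa, which helps load peptides, measured 381, 420 and 332 CPM against 169 and 182 CPM without passing (edgeR adjusted p = 0.113). Ctss, the protease that trims the invariant chain, measured 1277, 1606 and 1386 CPM against 677 and 901 CPM (edgeR adjusted p = 0.113). Ciita, the master activator of these genes, had 17 UMIs in all members and was not tested. The co-stimulatory receptor gene Cd86 measured 257, 226 and 286 CPM against 202 and 259 CPM, with overlap.

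H2-Aa and H2-Eb1, whose promoter windows RefSeq supplied, share letters of the X and Y boxes of MHC class II promoters, the sites bound by the complex that recruits CIITA. The 120 bases before each start (build GRCm38.p6) are printed 5′ to 3′ on the gene's strand, with GCAACT, part of the X box, and CTGATTGG, part of the Y box, in capitals. The window of H2-Aa is chr17:34287824-34287943 on the minus strand and that of H2-Eb1 chr17:34305747-34305866 on the plus strand.
H2-Aa: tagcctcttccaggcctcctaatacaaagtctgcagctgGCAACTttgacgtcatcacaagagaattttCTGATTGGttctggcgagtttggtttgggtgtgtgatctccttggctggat
H2-Eb1: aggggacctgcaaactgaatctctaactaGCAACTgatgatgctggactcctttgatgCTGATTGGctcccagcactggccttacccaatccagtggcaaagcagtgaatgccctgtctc
The X letters begin 81 and 91 bases before the start and the Y letters 51 and 62 bases before it, so they are 30 and 29 bases apart and do not overlap. Searched on both strands, GCAACT occurred in 10.9% and CTGATTGG in 4.10% of 32851 promoter windows of 300 bases, and both in 0.466%. The letters were chosen after these sequences had been read, and a match describes the sequence only.

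**Figure D2:**
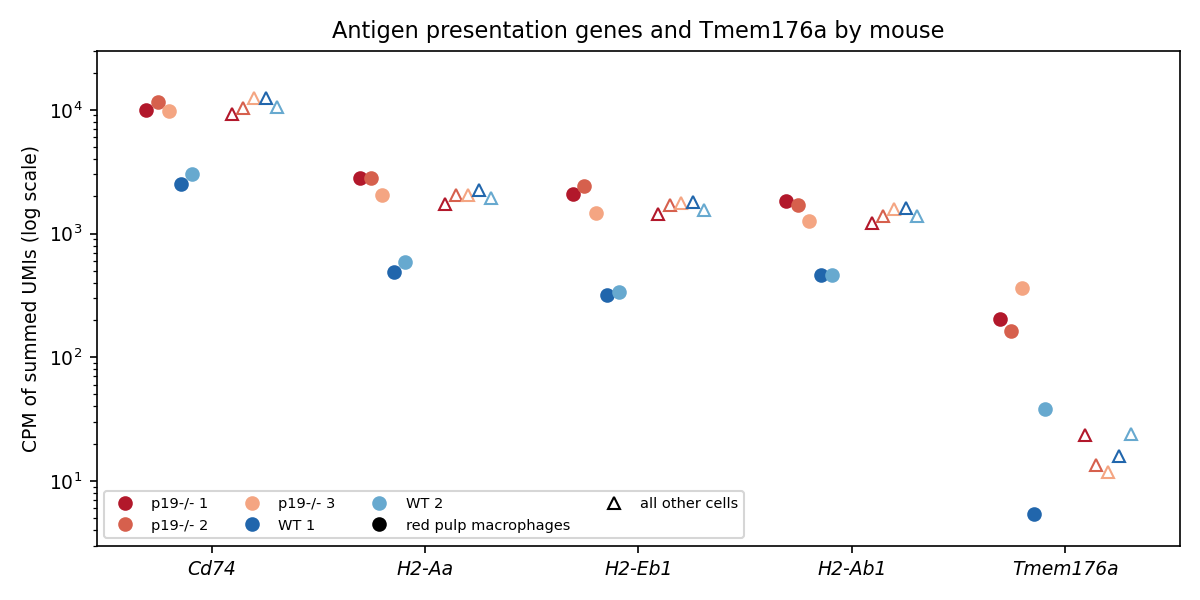
CPM of summed UMIs (log scale) in red pulp macrophages (filled circles) and in all other filtered cells of the same library (open triangles), 1 symbol per mouse. In macrophages the 3 p19-/- mice lie above the 2 WT mice for all 5 genes, for example 9841 CPM or more against 3040.1 CPM or less for Cd74, while in other cells the groups overlap.

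Single cells carried an uneven part of this signal. One cell held 425 of the 861 UMIs of H2-Aa, H2-Ab1 and H2-Eb1 in p19-/- mouse 1, one held 197 of 644 in mouse 2, and one held 212 of 317 in mouse 3. In WT mice 1 and 2 the top cell held 18 of 232 and 28 of 144. The top cells of p19-/- mice 1 and 3 held 1 red pulp gene UMI each, among 12014 and 4432 UMIs of all genes. That of p19-/- mouse 2 held 28 among 11033, and those of WT mice 1 and 2 held 27 among 4674 and 43 among 4121. Without these cells the 3 genes summed to 3744, 5469 and 1696 CPM in p19-/- members and 1198 and 1158 CPM in WT members, still with no overlap. The difference was also seen cell by cell at equal depth. Thinned to 500 UMIs, 64.4%, 82.6% and 64.0% of p19-/- members held a class II UMI, against 38.3% and 31.3% of WT members (unthinned 80.8%, 87.0%, 80.0%, 67.8% and 62.5%). T cells, which should lack these genes, held one in 2.55 to 9.19% of cells after thinning. The share was 70.3% ± 10.6 (SD, n = 3) against 34.8% ± 4.96 (SD, n = 2), and the exact permutation p of 0.2, the smallest that 10 splits allow, became 0.533 after adjustment over 8 such shares.

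**Figure D3:**
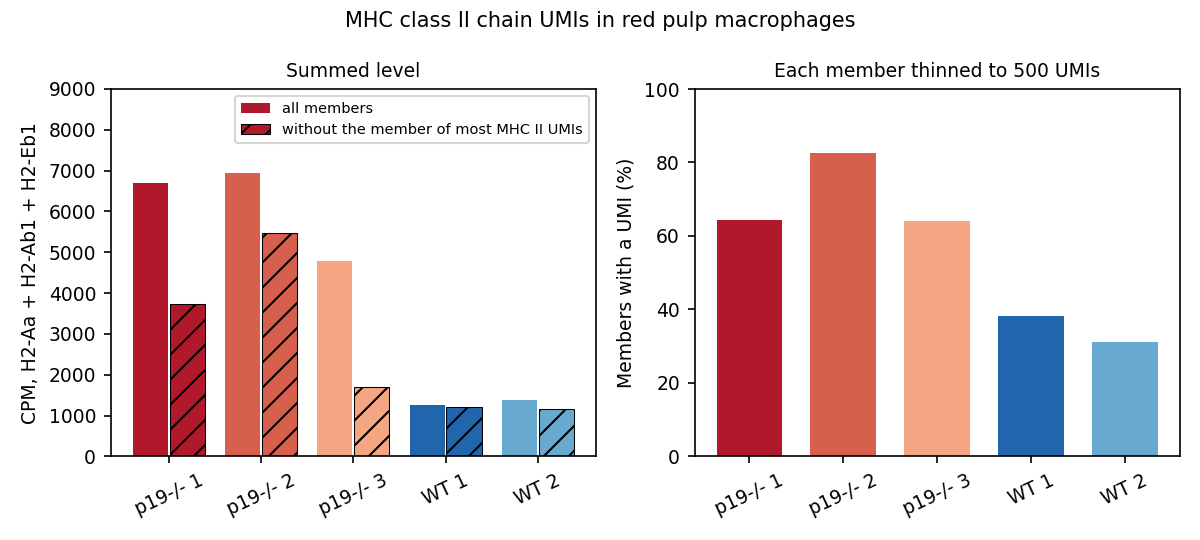
Left, summed CPM of H2-Aa, H2-Ab1 and H2-Eb1 in red pulp macrophages of each mouse, with all members (plain bars) and without the member holding most of these UMIs (hatched bars); right, the percentage of members with at least 1 UMI of the 3 genes after thinning to 500 UMIs. Removing 1 cell lowers p19-/- mouse 3 from 4777 to 1696 CPM and leaves it above both WT mice, and the share of positive members is 64.0% or more in p19-/- mice and 38.3% or less in WT mice.

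The size of the difference depended on which cells counted as members. At the edge of the rule, 29 members with exactly 1 red pulp gene UMI held 22856 CPM of Cd74, 13253 of Lyz2 and 1065 of Hmox1. Of these cells 16 came from p19-/- mouse 1. Single cells carried most of that Cd74: 1 cell held 501 of the 663 UMIs in p19-/- mouse 1. In p19-/- mouse 3, 1 cell held 354 of 358. The 34 cells just outside, with 0 red pulp gene UMIs, held 9795 CPM of Cd74, 17519.9 of Lyz2 and 539 of Hmox1. On the other threshold, 37 members with 3 or 4 C1q UMIs held 3328 CPM of Hmox1 and 2543.5 of Cd74, and 32 cells with 1 or 2 held 2028 and 1302. With at least 2 red pulp gene UMIs required, the log2 fold change of Cd74 was 1.5 and that of H2-Aa 1.73, and neither passed (edgeR adjusted p = 0.261 and 0.448). Among members with more than 10 red pulp gene UMIs, the 3 class II chains summed to 2815, 7751 and 1371 CPM in p19-/- mice and 1346 and 1333 CPM in WT mice. In that strict subset p19-/- mouse 3 lay close to the WT mice. When the 74 members with any UMI of 17 monocyte, dendritic, B or T cell genes were left out, Cd74 stood at 0.99 and H2-Aa at 1.52 on the log2 scale, and 0 of 1090 genes outside the rule were called, 75 having an unadjusted p under 0.05. Without WT mouse 1 or WT mouse 2, H2-Ab1 kept its size, at 1.90 and 1.81, and missed the threshold (edgeR adjusted p = 0.0565 and 0.0513). The positive direction of Cd74, H2-Aa, H2-Eb1 and H2-Ab1 held under all 23 settings tried.

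**Figure D4:**
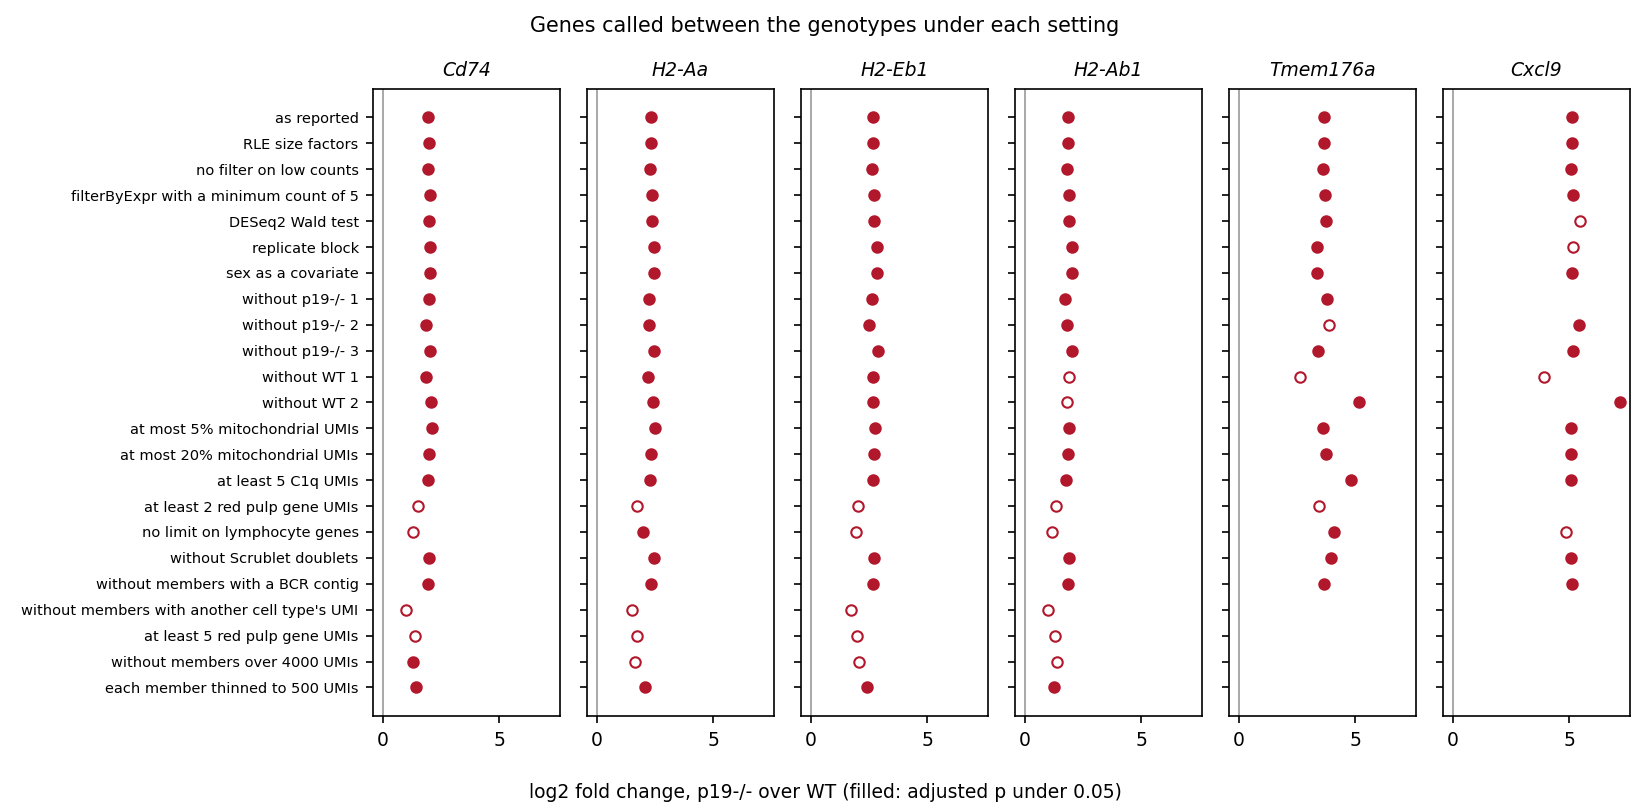
Log2 fold change of p19-/- over WT for the 6 called genes (1 panel each) under each processing setting (rows), with filled points where the adjusted p is under 0.05 and no point where a gene was not tested. All points lie above 0, from 0.99 to 2.13 for Cd74, and for the class II genes most open points are in the settings that change membership.

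The other 2 called genes were Tmem176a and Cxcl9. Tmem176a, a membrane protein gene of antigen-presenting cells, measured 202, 162 and 362 CPM in p19-/- members and 5.46 and 38.4 CPM in WT members. Its log2 fold change was 3.67 ± 0.58 (edgeR adjusted p = 0.00923), but it did not pass without WT mouse 1, at 2.64 (edgeR adjusted p = 0.286), or without p19-/- mouse 2, at 3.87 (edgeR adjusted p = 0.0696). Cxcl9, a chemokine induced by interferon gamma that draws T cells, measured 210, 86.2 and 151 CPM in p19-/- members, 0 in WT mouse 1 and 9.59 CPM in WT mouse 2. With 45 UMIs against 1 the ratio was 45.0, with an exact 95% counting interval of 7.67 to 1816 (edgeR adjusted p = 0.0208), and it did not pass without WT mouse 1 (edgeR adjusted p = 0.286). Nor did it pass with DESeq2 (adjusted p = 0.0508), with a replicate block (edgeR adjusted p = 0.0556) or with no limit on lymphocyte genes (edgeR adjusted p = 0.0644). Dendritic cells of the same libraries, only 2 to 8 cells per mouse, held 22.1 to 414 CPM of Cxcl9.

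Of the 24 listed interferon gamma response genes, 12 were tested, 11 had positive fold changes with a median of 0.65, and Cxcl9 alone was called. Psmb8, an immunoproteasome subunit, measured 234, 259 and 347 CPM against 153 and 192 CPM (edgeR adjusted p = 0.382). Gbp8 went the other way, as described below. The type I interferon list gave no call among 4 tested genes.

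Cytokine genes were mostly scarce in these cells. Il23r, Il12rb1 and Il12b had 0 UMIs in members, so transcripts of both IL-23 receptor chains were not detectable at this depth. The interferon gamma receptor gene Ifngr1 measured 327, 464 and 543 CPM against 333 and 489 CPM. Ccl8, a chemokine, measured 202 and 636 CPM in p19-/- mice 1 and 2 and 0 in mouse 3 and both WT mice. With a floor of 3 UMIs over the WT group it was at least 28.3-fold higher in p19-/- members, and edgeR did not call it as set up here (edgeR adjusted p = 0.107). Ccl8 was called with a minimum count of 5 (edgeR adjusted p = 0.00883) and without p19-/- mouse 3 (edgeR adjusted p = 0.00381), among other settings. It was also called with a replicate block (edgeR adjusted p = 0.000389) and with sex as a covariate (edgeR adjusted p = 0.000385). Both of these likewise leave p19-/- mouse 3, whose Ccl8 was 0, out of the genotype contrast, as the only male and only replicate 3. Lyz2 measured 4297, 10802 and 5064 CPM against 1206 and 2551 CPM, just short of the threshold (log2 fold change 1.93 ± 0.39, edgeR adjusted p = 0.0528). Lyz2 was called under 9 of 23 settings, such as a minimum count of 5 (edgeR adjusted p = 0.00196) or without p19-/- mouse 1 (edgeR adjusted p = 1.22e-05). The log2 fold change of Lyz2 ran from 0.72 to 4.16 over the settings. Its UMIs lay in few cells, 15.5% ± 3.6 (SD, n = 3) of thinned p19-/- members and 6.34% ± 2.82 (SD, n = 2) of WT members. In T cells the share was 0 to 1.85%. Lyz2 and the summed monocyte markers, mostly Lyz2 itself, were thus higher in p19-/- members, as were the class II genes. The 2 did not move together when membership was tightened. With at least 2 and at least 5 red pulp gene UMIs, the log2 fold change of Lyz2 rose to 2.82 and 4.16. That of H2-Aa fell from 2.32 to 1.73 and 1.72. Without members holding another cell type's UMI both fell, to 0.72 for Lyz2 and 1.52 for H2-Aa. None of these values passed. The part of monocyte genes in the class II result was not tested beyond these removals of cells.

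In the opposite direction 0 genes passed with edgeR as set up here, although 95 had an unadjusted p under 0.05. Malat1 was called lower under 9 of 23 settings, among them DESeq2 (adjusted p = 0.0484), edgeR with a minimum count of 5 (adjusted p = 0.0434) and edgeR without p19-/- mouse 3 (adjusted p = 0.028). The 5 of lowest p were Malat1, Tbxas1, Col14a1, Ppp4r3b and Cflar, given here as values that did not pass. Malat1, a nuclear noncoding RNA, measured 12314, 11739.7 and 13563 CPM against 19936 and 20341 CPM (log2 fold change -0.64 ± 0.13, edgeR adjusted p = 0.0528). Tbxas1, thromboxane synthase, measured 85.6, 119 and 105 CPM against 229 and 259 CPM (edgeR adjusted p = 0.177). Col14a1, the collagen gene of highest member to other cell ratio, measured 15.6, 119 and 121 CPM against 278 and 269 CPM (edgeR adjusted p = 0.177). The groups did not overlap for these 5 genes, which were picked for their low p, nor for 16.6% of all tested genes in this direction.

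Whether the genotype difference was the same in macrophages and in the rest of each library was tested with an interaction term between genotype and class, with mouse as a block. It was called for 12 genes, or 0.595% of those tested. Cd74, whose level in all other cells was 9235, 10258 and 12526 CPM in p19-/- mice and 12429.5 and 10513 CPM in WT mice, had an interaction of 2.14 ± 0.21 (edgeR adjusted p = 0.000187). H2-Aa gave 2.48 ± 0.27, H2-Eb1 2.75 ± 0.31 and Tmem176a 4.10 ± 0.77. For members as the rule defined them, the class II difference was therefore larger than in the remaining cells as a pool. In that pool the 4 genes had log2 fold changes of -0.13 to -0.06. Of the 9356 filtered cells, 4083 were B cells and 3687 T cells. After thinning, 96.5 to 99.1% of B cells held a Cd74 UMI. No interaction was fitted against the 143 monocytes or 28 dendritic cells alone. Whether the difference was particular to red pulp macrophages among such cells was thus not tested. The interaction was not fitted with at least 2 red pulp gene UMIs or without members holding another cell type's UMI. Under those settings the 4 genes lost their genotype calls.

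Stab2, an endocytic receptor for hyaluronan and aged cells, had the largest interaction, at 6.60 ± 0.59 (edgeR adjusted p = 0.000113). In macrophages it measured 218, 291 and 166 CPM in p19-/- mice and 360 and 163 CPM in WT mice, and the groups overlapped. Stab2 in T cells was 0 in each p19-/- mouse and 75.4 and 84.7 CPM in the 2 WT mice, and B cells 0 against 30.0 and 29.3 CPM. All other cells together held 6, 3 and 3 Stab2 UMIs in p19-/- mice and 670 and 684 in WT mice. Stab2 transcripts were thus present in macrophages of both genotypes and in lymphocytes of the WT mice. Stab2 lies at chr10:86841194-87008038 and Il23a on the same chromosome at chr10:128296140-128298084 (GRCm38.p6). Spic, a gene of the rule, lies between them at chr10:88675269-88683023.

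Gbp8, an interferon-inducible GTPase gene, showed the reverse. Macrophages held 125, 140 and 226 CPM in p19-/- mice and 300.1 and 297 CPM in WT mice. All other cells held 16.8, 17.3 and 10.1 CPM in p19-/- mice against 1.58 and 3.24 CPM in WT mice. The interaction was -3.48 ± 0.57 (edgeR adjusted p = 0.0143), so the genotype difference was not the same in macrophages and the other cells. The call was lost without WT mouse 1, at -2.93 (edgeR adjusted p = 0.48), and without p19-/- mouse 2, at -3.31 (edgeR adjusted p = 0.135). H2-Ab1 lost its interaction call without p19-/- mouse 2 or WT mouse 1 (edgeR adjusted p = 0.0683 and 0.138), and Tmem176a without p19-/- mouse 2, WT mouse 1 or WT mouse 2 (edgeR adjusted p = 0.164, 0.519 and 0.0596).

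**Figure D5:**
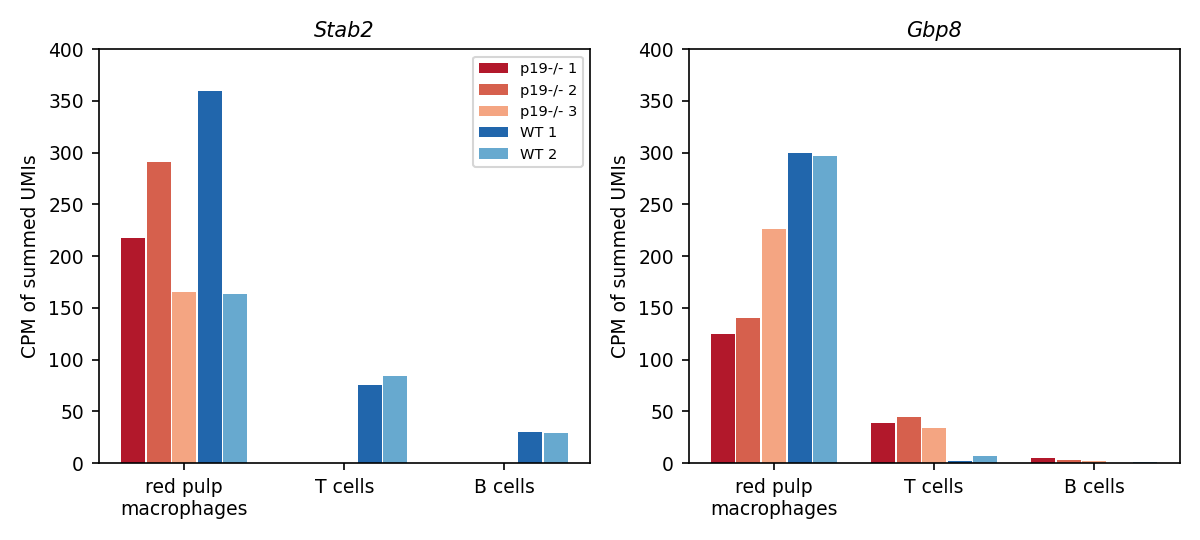
CPM of summed UMIs of Stab2 (left) and Gbp8 (right) in red pulp macrophages, T cells and B cells, 1 bar per mouse. Stab2 reads 163 to 360 CPM in macrophages of both genotypes and 0 in T and B cells of the p19-/- mice, while Gbp8 is highest in WT macrophages and, among T cells, in the p19-/- mice.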

How the data were processed

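Per the submitters' processing notes, reads were handled with Cell Ranger 3.0.2, STAR and mm10. For each of 5 mice the authors deposited whole-number UMI counts, not normalized, by gene and cell barcode, and a table of B cell receptor contigs, from a droplet kit that reads the 5′ end of transcripts. Whether the count matrices hold every barcode or a filtered set is not given in the sources used here. The matrices held 11355 barcodes. Member cells were selected by the thresholds given above, and their counts were summed per mouse, since mice and not cells are the replicates. Contigs were joined to members by barcode within a mouse.

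Genotype was tested with edgeR 4.0.16 (TMM scaling, filterByExpr, quasi-likelihood F test, adjusted p threshold 0.05) in R 4.3.3. Benjamini-Hochberg adjustment ran over all 2023 genes that passed the filter, 2017 of them outside the rule. The interaction test compared members with all other filtered cells of a mouse, with mouse as a block. Shares and medians used exact permutation tests over 10 splits of the mice. DESeq2 1.42.0 was an alternative. Cells were handled in Python 3.11.15 with scanpy 1.11.5. The genotype fit was tried on simulated counts with 200 changed genes and a common dispersion of 0.0402. Of the changed genes that were tested, it called 2.23% at 1.5-fold, 33.1% at 2-fold and 95.8% at 4-fold. Changes of 2-fold or less were thus mostly missed, and a list with 0 calls can still hold changes of that size.

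Scrublet's own threshold marked 26 of 9356 cells (0.278%), which was too few. The highest scores were taken instead, at a share set by the number of deposited barcodes of each library. The number of cells loaded is not known. That marked 186 cells (1.99%), 6 of them members, which were left out as an alternative only. To compare shares of cells with a UMI, each cell was thinned to 500 UMIs, and no member was shallower. Intervals and floors cover counting error only.

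The members, the 30 gene lists and the tests were chosen with earlier results of these data known. Genes of the iron, heme, engulfment, scavenger, complement and identity lists could be named freely. Beyond these, called genes without overlap between groups and with a mean of at least 20 CPM in the higher group were named, and the 5 genes of lowest p where fewer than 5 passed in a direction. Left out of naming were 50 tested genes (immunoglobulin and T cell receptor segments, Xist, Tsix, Y-linked and mitochondrial genes, unnamed models and pseudogenes). H2-DMa, Ctss, Cd86, Ciita, Psmb8, Ifngr1 and Ccl8 were named after their values were seen. Alternatives changed the scaling, filter, tool, covariates, member thresholds and libraries. The labels give no batch, so none was examined. Replicate numbers name different mice and did not pair them. Promoter sequences and coordinates are from RefSeq tables of GRCm38.p6.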

Additional observations from a re-analysis of the deposited data

Results flagged for a closer look

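For 12 genes the genotype difference in red pulp macrophages differed from that in all other cells of the same libraries, by the interaction term of edgeR's quasi-likelihood test. The interaction is the log2 fold change of p19-/- over WT in macrophages minus that in other cells. It was 6.60 for Stab2, 2.14 for Cd74, 2.48 for H2-Aa, 2.75 for H2-Eb1, 2.02 for H2-Ab1 and 4.10 for Tmem176a. Rplp0, a ribosomal protein gene, gave 0.99, with 2413, 2059 and 2893 CPM in p19-/- macrophages and 1206 and 1486 CPM in WT macrophages. Cd52, a surface glycoprotein gene of leukocytes, gave 1.52, with 965, 658 and 1341 CPM against 344 and 422 CPM. Gbp8 gave -3.48. The haemoglobin genes Hbb-bt, Hba-a1 and Hba-a2 gave -3.24, -2.88 and -2.95, and a single macrophage barcode held 81.4%, 97.2% and 36.4% of all haemoglobin UMIs in p19-/- mice 1 to 3 and 17.5% and 83.4% in WT mice 1 and 2. Without WT mouse 1, Cd74, H2-Aa, H2-Eb1 and Stab2 were still called and the other 8 were not.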

How the results depend on the processing

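The genotype test called 6 genes. It called 44 with no filter on low counts, 20 with a minimum count of 5, 13 with DESeq2, 18 with sex as a covariate, 13 with up to 20% mitochondrial UMIs and 14 with at least 5 C1q UMIs. It called 0 with at least 2 red pulp gene UMIs (136 genes at an unadjusted p under 0.05) and 2 with no limit on lymphocyte genes. With a replicate block it called 14, of which 5 were among the 6, although the replicate numbers do not pair the mice (correlations of deviations -0.01 and -0.13). The replicate block and the sex covariate both leave p19-/- mouse 3 out of the genotype contrast, as the only male and only replicate 3. Leaving out 1 mouse gave 3 to 13 calls, the lowest without WT mouse 1. Among alternatives chosen after seeing the data, it called 0 without members holding another cell type's UMI, 0 with at least 5 red pulp gene UMIs (104 at an unadjusted p under 0.05) and 1, Cd74, without members over 4000 UMIs. With each member thinned to 500 UMIs it called 7 of 341 genes, 4 higher and 3 lower (Hba-a1, Hbb-bt and Malat1). Hba-a2, in contrast, was called higher with no filter on low counts and with sex as a covariate. The interaction count of 12 became 29 with no filter and 4 to 17 without 1 mouse. For these counts the cause was not tested, and the interaction was not fitted under other member thresholds. No called gene changed sign. The share of members and the UMIs per member stayed within the spread between mice. The count of 0 members with a contig was repeated only with productive contigs or without 1 mouse, which could not raise it. With 66357 to 183291 member UMIs per mouse, genes of few UMIs were not tested.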

Other observations

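The lysosome, heat shock, glycolysis, oxidative stress and lipid handling lists gave no call with edgeR's quasi-likelihood test. Of 21 lysosome genes 13 had positive log2 fold changes of p19-/- over WT, with a median of 0.28 and 5 genes higher at an unadjusted p under 0.05. Of 11 heat shock and immediate early genes 10 were positive, with a median of 0.59. Of 9 glycolysis genes 8 were positive, with a median of 0.62. Of 13 oxidative stress genes 11 were negative, with a median of -0.18. Of 13 lipid handling genes 8 were positive, with a median of 0.16, against -0.02 over all tested genes. Apoe, an apolipoprotein of macrophages, measured 4071, 8635 and 2788 CPM in p19-/- members and 2389.6 and 3040.1 CPM in WT members, with overlap.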
